A study of Mus musculus with 4 samples.

Results

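Type I interferon-stimulated genes encode the antiviral machinery that a cell switches on when interferon binds its receptor. The receptor chains IFNAR1 and IFNAR2 act through the kinases JAK1 and TYK2 on transcription factors that enter the nucleus and bind a short promoter sequence, the interferon-stimulated response element. Products of these genes sense viral RNA, degrade it, stop its translation, block entry at membranes or tag proteins with ISG15, and in NK cells they are part of the early response to murine cytomegalovirus (MCMV).

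The set held 40 classical antiviral genes, listed by symbol, among the 35798 named genes of the count table. Of these, 39 were found under the listed symbol, and Ddx58, which encodes the RNA sensor RIG-I, was found under its newer symbol Rigi. All 40 passed the filter on low counts, with 66 counts or more in every library.

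The RNA came from Ly49H+ NK cells that had been sorted from the spleens of NSG mice on D3.5 after MCMV infection. Wild-type cells carried the CD45.1 allele and TNFR2 KO cells the CD45.2 allele, both had been transferred into the same hosts before infection, and there were 2 libraries per genotype. Each library was made from the pooled spleens of 3 hosts, and each pool gave 1 wild-type and 1 TNFR2 KO library, which carry its replicate number. Every cell therefore met the same virus in the same animals, whereas the genotype, the CD45 allele and the gate used to sort the cells differ as one and cannot be told apart. NSG hosts lack their own T, B and NK cells and keep myeloid cells. The study's methods give a range of ages in weeks for all mice used, and the labels give no age for single animals. Libraries held between 32713256 and 39543650 counts, given here as CPM (the count relative to the size of its library) after TMM scaling, which sets the bulk of genes to the same level in every library. Fold changes are on the log2 scale, negative where TNFR2 KO was below wild-type, and a gene was called where the Benjamini-Hochberg adjusted p of the quasi-likelihood test in edgeR, taken over 13822 genes, was under 0.05. The study describes a single experiment in duplicate, and the sources do not say outright that the pools held different mice, so the p-values measure only the spread between these libraries, which may be technical. The targeted gene, Tnfrsf1b, stood at 264.7 and 268.6 CPM in the wild-type libraries. In the TNFR2 KO libraries it was reduced to 55.1 and 58.6 CPM (log2-fold change -2.23).

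To show what the genes share in sequence, the promoters in the RefSeq table (GRCm38.p6, the build of the count data) were searched from 250 bases before to 50 bases after each start site for the core of the response element, which is GAAA, any 2 bases and GAAA again, or TTTC, any 2 bases and TTTC where the element lies on the opposite strand. Overlapping matches were counted. An entry was found for 31 of the 40 genes, and 13 of the 31 (41.9%) had a match, compared with 3.99% of the 27025 genes in the table. The stretches below are read 5′ to 3′ on the gene's own strand with the matched letters in capitals. Of their genes, 6 were lower in the TNFR2 KO libraries by different amounts. The other 2 (Oas1a, Trim30a) had a small difference or none.
Isg15: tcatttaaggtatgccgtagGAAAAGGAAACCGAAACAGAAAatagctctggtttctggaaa
Ifit3: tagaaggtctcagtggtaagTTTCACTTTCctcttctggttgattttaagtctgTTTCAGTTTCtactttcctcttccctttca
Ifit1: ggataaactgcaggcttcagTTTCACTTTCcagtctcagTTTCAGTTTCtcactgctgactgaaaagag
Rsad2: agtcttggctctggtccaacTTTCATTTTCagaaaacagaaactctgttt
Oas3: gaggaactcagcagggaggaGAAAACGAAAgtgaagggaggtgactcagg
Bst2: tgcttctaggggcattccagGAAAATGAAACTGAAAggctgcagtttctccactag
Oas1a: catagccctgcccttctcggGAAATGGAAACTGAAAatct
Trim30a: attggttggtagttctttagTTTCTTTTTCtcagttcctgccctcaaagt

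The Isg15 stretch lies at chr4:156200855-156200916 on the minus strand and holds 3 overlapping matches, the first of them 78 bases before the start site. Those of Ifit3 (chr19:34583353-34583436) and Ifit1 (chr19:34640765-34640833), both on the plus strand, hold 2 separate matches each, beginning 156 and 104 bases before the start. On the minus strand, the Rsad2 stretch is at chr12:26456543-26456592, that of Oas3 at chr5:120777705-120777754, that of Bst2 at chr8:71537567-71537622, that of Oas1a at chr5:120907526-120907565 and that of Trim30a at chr7:104465200-104465249. Matches were found both in genes that fell strongly and in 1 gene, Trim30a, that did not pass the test. Of the 13 genes with a match, 11 were called lower, 1 higher and 1 was not called, with a median log2-fold change of -0.81 and a range from -1.82 to 0.10. Of the 18 without one, 11 were called lower, 2 higher and 5 were not called, with a median of -0.31 and a range from -2.27 to 0.26. A match describes these letters only, and its absence says only that these letters are not in this window.

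As a group, the interferon-stimulated genes were lower in the TNFR2 KO libraries. In edgeR's test 33 of the 40 were called, where 50.4% of all genes tested were, of which 29 were lower (26.2% of all genes) and 4 higher (24.2% of all genes). An absolute log2-fold change over 1 was passed in addition by 9 of the lower genes, against 11.8% of all genes, and by 0 of the higher ones, against 1.56%. The median log2-fold change of the 40 genes was -0.49, with quartiles of -0.94 and -0.10, while the median of all genes tested lay at -0.0028. An alternative scaling set the summed count of the NK cell markers equal between libraries. That sum is weighted towards abundant markers such as Gzma and Gzmb (wild-type means 5804.9 and 3876.4 CPM). Single markers had log2-fold changes from -0.42 to 1.49 after TMM scaling. With the NK cell marker scaling the median of all genes moved to -0.86, and 12196 of the 13822 genes tested were lower and 118 higher. All 40 interferon-stimulated genes were among the lower ones, so every rise given here is relative to the bulk of genes. Libraries of the 2 genotypes did not overlap for 37 of the 40 genes, 33 with both TNFR2 KO libraries lower and 4 with both higher, and such separation was seen in 37.7% and 36.4% of all genes. Summed over the 40 genes, expression was 5928.8 and 5882.1 CPM in wild-type and 4539.9 and 4606.7 CPM in TNFR2 KO, or 77.4% of wild-type.

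Libraries from these spleens also held RNA of other cell types, whose markers moved with genotype. Of 20 macrophage or monocyte markers, 18 were lower, with a median log2-fold change of -2.89, and the summed level of the list fell from between 2594.2 and 2621.6 CPM in wild-type to between 1261.4 and 1282.9 CPM in TNFR2 KO. None of the 20 was at 0 counts. Its most abundant members went opposite ways, as Lyz2, the lysozyme of myeloid cells, had a log2-fold change of -2.79 and Ccr2, a chemokine receptor that activated NK cells can also carry, one of 0.78. Summed neutrophil or granulocyte precursor markers fell from 940.9 and 963.7 CPM to 82.7 and 79.3 CPM. Of 8 mast cell or basophil markers, 7 were lower, and Cma1 was higher (1.69). Of 10 dendritic cell or class II markers, 6 were lower, 3 were not called and Itgax was higher (1.11). Among NK cell markers, 22 of 23 were higher, with a median of 0.84. Of all genes tested, 26.2% were lower and 24.2% higher. Macrophages, neutrophils and dendritic cells express interferon-stimulated genes as well, and the part of these cells in the differences given here was not tested. Bulk RNA cannot tell fewer cells of a type from less RNA per cell.

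**Figure D1:**
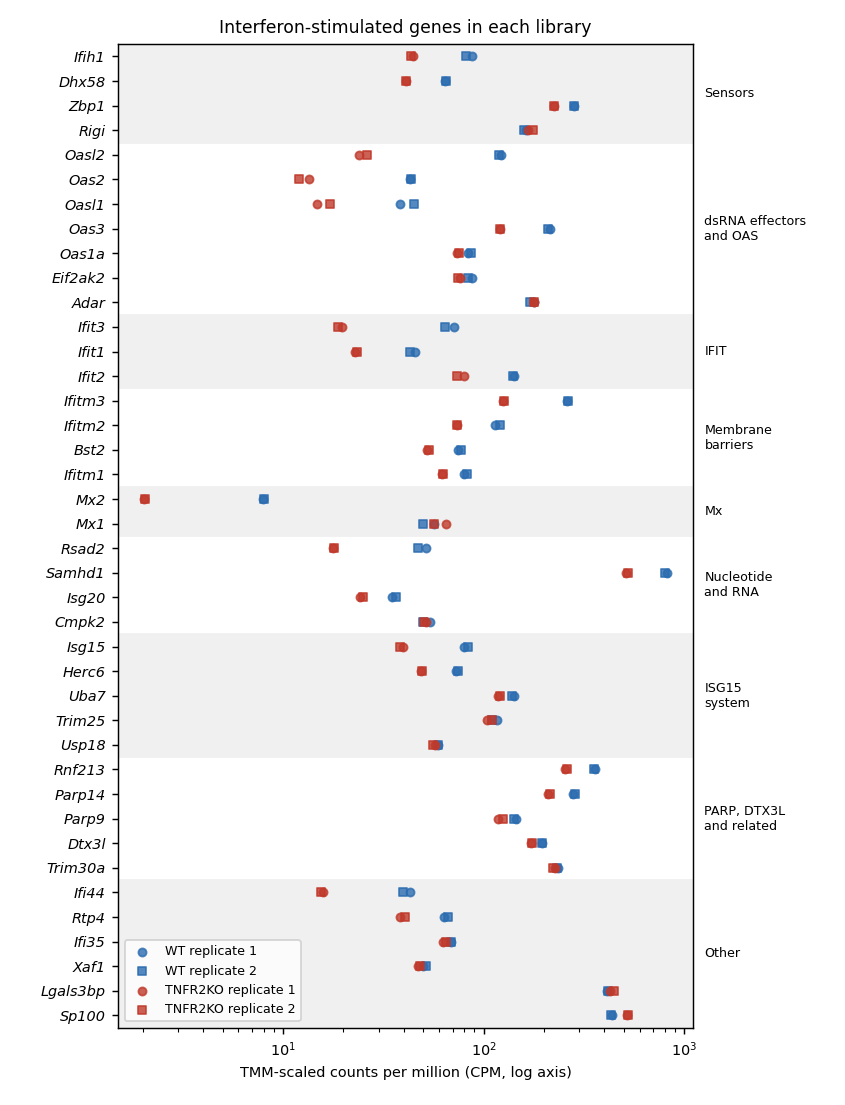
TMM-scaled CPM (log axis) of the 40 interferon-stimulated genes in each of the 4 libraries, with wild-type in blue, TNFR2 KO in red, replicate 1 as circles and replicate 2 as squares, and genes grouped by role. Duplicates lie close together, and both TNFR2 KO points lie to the left of both wild-type points for 33 genes.

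All 5 OAS family genes of the set were lower, by very different amounts. Those proteins of the family that are active enzymes make 2′-5′ oligoadenylate when they meet double-stranded RNA and thereby activate RNase L, which cuts RNA. Oasl2 measured 122.3 and 118.6 CPM in wild-type and 24.0 and 26.1 CPM in TNFR2 KO, the largest fall of the set (log2-fold change -2.27, standard error 0.0476, adjusted p = 1.44e-12). Oas2 fell from 42.8 and 43.3 CPM to 13.5 and 12.0 CPM (-1.75, adjusted p = 3.83e-10). Oasl1 fell from 38.4 and 44.9 CPM to 14.8 and 17.2 CPM (-1.39, adjusted p = 4.61e-08). Their TNFR2 KO means stood at 20.8%, 29.7% and 38.3% of wild-type, and the groups did not overlap for any of them.

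Other members of the family fell less. Oas3 went from 214.7 and 208.4 CPM to 120.4 CPM in both TNFR2 KO libraries (-0.81, adjusted p = 3.26e-10). Oas1a measured 83.7 and 87.0 CPM in wild-type and 73.3 and 75.2 CPM in TNFR2 KO (-0.20, adjusted p = 0.000926). Oas1a, Oas3 and Oas2 form 1 cluster on chromosome 5 (minus strand, 120730333 to 120907521 in GRCm38), and they changed by different amounts. The number of Oas2 counts per Oas1a count, a measure that no scaling between libraries can alter, here and below for pairs chosen after their values were seen and without a test, was 0.512 and 0.498 in wild-type and 0.185 and 0.159 in TNFR2 KO. Of the sequence of Oas1a, cut into stretches of 31 bases, 68.7% also occurs in Oas1g, so reads could be split between them and the count is uncertain. Oas1g itself had a log2-fold change of -2.68.

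Eif2ak2 and Adar also act on double-stranded RNA, and their differences were small. Eif2ak2, which encodes the kinase PKR that stops translation in infected cells, measured 87.9 and 83.9 CPM in wild-type and 76.2 and 74.2 CPM in TNFR2 KO (-0.19, adjusted p = 0.00158). Adar, which edits adenosines in double-stranded RNA and so keeps the sensors from reacting to the cell's own transcripts, did not pass the test (178.4 and 170.4 CPM against 178.2 and 178.6 CPM, log2-fold change 0.03 with a standard error of 0.031, adjusted p = 0.411).

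The 3 IFIT genes of the set, whose proteins bind foreign RNA and hinder its translation, were lower. Ifit3 fell from 71.2 and 64.5 CPM to 19.6 and 18.9 CPM (-1.82, adjusted p = 1.27e-10). Ifit1 fell from 45.4 and 43.1 CPM to 22.8 and 23.3 CPM (-0.94, adjusted p = 2.47e-08), and Ifit2 from 142.2 and 139.3 CPM to 79.5 and 73.9 CPM (-0.87, adjusted p = 2.17e-09). Together the 3 genes stood at 47.0% of wild-type. They lie on the plus strand of chromosome 19, between 34550694 and 34650009. Ifit3 shares 61.8% of its stretches of 31 bases with the adjacent copy Ifit3b, which itself fell by 2.19, and the split between these copies is uncertain. For Ifit1 the shared part was 10.8%, and for Ifit2 it was 0%.

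Each of the 4 membrane proteins was lower. IFITM proteins sit in plasma and endosomal membranes and hinder the fusion of viruses, and BST2, also called tetherin, holds budding virions on the cell surface. Ifitm3 measured 261.6 and 263.7 CPM in wild-type and 124.6 and 126.4 CPM in TNFR2 KO (-1.07, standard error 0.0281, adjusted p = 1.18e-11). Ifitm2 fell from 114.5 and 121.2 CPM to 73.6 and 73.7 CPM (-0.68), Bst2 from 74.5 and 77.2 CPM to 52.3 and 53.7 CPM (-0.52) and Ifitm1 from 79.5 and 82.7 CPM to 61.7 and 63.0 CPM (-0.38), with adjusted p-values between 1.97e-08 and 6.86e-06. Per kilobase of its longest GENCODE transcript, Ifitm3 had the highest level of the set in wild-type, at 387.4 CPM per kilobase, followed by Samhd1 at 206.5 and Ifitm2 at 179.9. In the TNFR2 KO libraries Ifitm3 measured 185.1 CPM per kilobase and Lgals3bp 187.1. Reads of Ifitm2 are uncertain, since 55.5% of its stretches of 31 bases occur in other genes.

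The pair of Mx genes, which encode dynamin-like GTPases that trap viral components, moved apart. Mx2 fell from 7.94 and 8.03 CPM to 2.04 and 2.06 CPM (-1.96, standard error 0.151, adjusted p = 3.61e-07). Mx1 measured 56.4 and 49.7 CPM in wild-type and 64.8 and 56.5 CPM in TNFR2 KO, a difference of 0.20 (adjusted p = 0.0338) that turned to -0.67 when scaled on NK cell markers. The call of Mx1 was lost with DESeq2 (adjusted p = 0.051), without wild-type replicate 2 (log2-fold change 0.12) and without TNFR2 KO replicate 1 (0.10). Mx2 was the least abundant gene of the set per kilobase, and the filter that asks for a mean of 10 CPM removed it. The genes are neighbours on chromosome 16, Mx1 on the minus strand from 97447035 to 97462907 and Mx2 on the plus strand from 97535308 to 97560900. Per Mx1 count there were 0.141 and 0.161 Mx2 counts in wild-type and 0.0314 and 0.0367 in TNFR2 KO. Many laboratory mouse strains carry a defective Mx1 allele, so that its transcript does not imply a working protein.

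Genes of nucleotide and RNA metabolism gave a similar contrast between neighbours. Rsad2, which encodes viperin, an enzyme that converts CTP into a chain terminator of viral RNA synthesis, fell from 51.6 and 47.1 CPM to 17.8 and 18.0 CPM (-1.46, adjusted p = 1.18e-09). Cmpk2 encodes a mitochondrial nucleotide kinase that supplies CTP, and its expression did not differ beyond the spread between libraries, at 53.8 and 49.8 CPM in wild-type and 51.9 and 50.3 CPM in TNFR2 KO (-0.02, standard error 0.0498, adjusted p = 0.765). These genes lie next to each other on chromosome 12, Rsad2 from 26442746 to 26456452 on the minus strand and Cmpk2 from 26469204 to 26479837 on the plus strand. Rsad2 counts per Cmpk2 count were 0.96 and 0.944 in wild-type and 0.343 and 0.358 in TNFR2 KO. Under 1% of the sequence of either gene occurs elsewhere (0.739% and 0%). Samhd1, which breaks down the deoxynucleotides that DNA viruses need, fell from 817.8 and 803.7 CPM to 512.4 and 523.8 CPM (-0.65, adjusted p = 3.53e-10). Isg20, an exonuclease that degrades single-stranded RNA, fell from 34.9 and 36.7 CPM to 24.1 and 25.1 CPM (-0.54, adjusted p = 6.03e-06).

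ISG15 is a ubiquitin-like protein that is linked to others by UBA7, by an E2 enzyme and by a ligase (in mice HERC6), and is removed by USP18, which also damps signalling at the interferon receptor. Isg15 measured 79.4 and 83.6 CPM in wild-type and 39.7 and 38.1 CPM in TNFR2 KO (log2-fold change -1.06, adjusted p = 1.46e-09). The gene is on chromosome 4, from 156199424 to 156200818. That chromosome also carries the targeted Tnfrsf1b, from 145213463 to 145246870, and Rigi, from 40203773 to 40239828, which was slightly higher (0.10). Whether these positions matter was not tested. Herc6 fell from 72.5 and 74.4 CPM to 48.8 and 49.3 CPM (-0.58, adjusted p = 1.65e-07), and Uba7 from 140.9 and 137.9 CPM to 117.3 and 120.2 CPM (-0.23, adjusted p = 7.05e-05). Isg15, Uba7 and Herc6 were thus lower, while the other 2 of the 5 genes grouped here, Usp18 and Trim25, were not called. Usp18, by contrast, stood at 59.0 CPM in both wild-type libraries and at 57.4 and 55.8 CPM in TNFR2 KO (-0.06, standard error 0.0419, adjusted p = 0.278). Trim25, a ubiquitin ligase that acts on RIG-I, measured 116.6 and 110.1 CPM against 104.5 and 110.5 CPM (-0.08, adjusted p = 0.13), with overlapping groups.

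Among the sensors, the RIG-I-like receptors differed from each other. Ifih1, which encodes the sensor of long double-stranded RNA MDA5, fell from 88.0 and 81.4 CPM to 44.5 and 43.3 CPM (-0.95, adjusted p = 6.51e-09), just short of the threshold of 1. Dhx58, which encodes their regulator LGP2, fell from 64.0 and 65.3 CPM to 40.8 and 41.0 CPM (-0.66, adjusted p = 8.31e-08). Rigi measured 162.2 and 158.5 CPM in wild-type and 167.2 and 177.2 CPM in TNFR2 KO (0.10, adjusted p = 0.0251), and its difference turned to -0.76 when scaled on NK cell markers. This small difference lost its call with DESeq2 (adjusted p = 0.0538), without wild-type replicate 2 (log2-fold change 0.09) and without TNFR2 KO replicate 2 (0.07). Zbp1, which senses nucleic acids in the Z form and can start necroptosis, a death pathway that cytomegaloviruses counteract, fell from 281.0 and 283.2 CPM to 224.5 and 223.1 CPM (-0.33, adjusted p = 4.04e-07).

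Of 5 genes of the set grouped as enzymes that attach ubiquitin or ADP-ribose and their partners, 4 were lower. Rnf213, a very large ubiquitin ligase, fell from 358.0 and 355.6 CPM to 254.5 and 260.8 CPM (-0.47), and Parp14, an ADP-ribosyltransferase, from 278.0 and 284.4 CPM to 208.5 and 215.2 CPM (-0.41). Parp9 and Dtx3l, whose proteins form a complex and whose genes overlap head to head on chromosome 16, changed by similar amounts, from 145.8 and 142.4 CPM to 118.2 and 124.3 CPM (-0.25) and from 195.4 and 196.4 CPM to 171.3 and 175.1 CPM (-0.18). Adjusted p-values of the 4 genes ran from 1.61e-08 for Rnf213 to 0.000211 for Dtx3l. Trim30a did not pass the test (235.0 and 231.3 CPM against 226.5 and 222.6 CPM, adjusted p = 0.123).

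The remaining members included both a strong fall and the clearest rise. Ifi44 fell from 42.9 and 39.8 CPM to 15.8 and 15.4 CPM (-1.41, adjusted p = 1.76e-09), and Rtp4, which encodes a chaperone of receptor transport, from 63.4 and 66.4 CPM to 38.3 and 40.4 CPM (-0.72, adjusted p = 9.23e-08). Sp100, which encodes a scaffold protein of nuclear bodies that restrains incoming herpesvirus genomes, rose from 435.4 and 431.0 CPM to 516.4 and 524.6 CPM (0.26, standard error 0.0241, adjusted p = 1.68e-06), but was at -0.60 when scaled on NK cell markers. Lgals3bp, a secreted glycoprotein, measured 413.0 and 417.6 CPM against 428.0 and 443.9 CPM (0.07, adjusted p = 0.0444), turning to -0.79 with the NK cell marker scaling. Its call was lost without wild-type replicate 1 (0.07), wild-type replicate 2 (0.09) or TNFR2 KO replicate 2 (0.05), so that of the 4 higher genes Sp100 alone kept its call with each library left out in turn. Ifi35 (-0.10, adjusted p = 0.0511) and Xaf1 (-0.09, adjusted p = 0.111) did not pass the test, although both TNFR2 KO libraries were below both wild-type libraries for each. Without TNFR2 KO replicate 2, Ifi35 and Trim25 passed it (log2-fold changes -0.12 and -0.11).

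**Figure D2:**
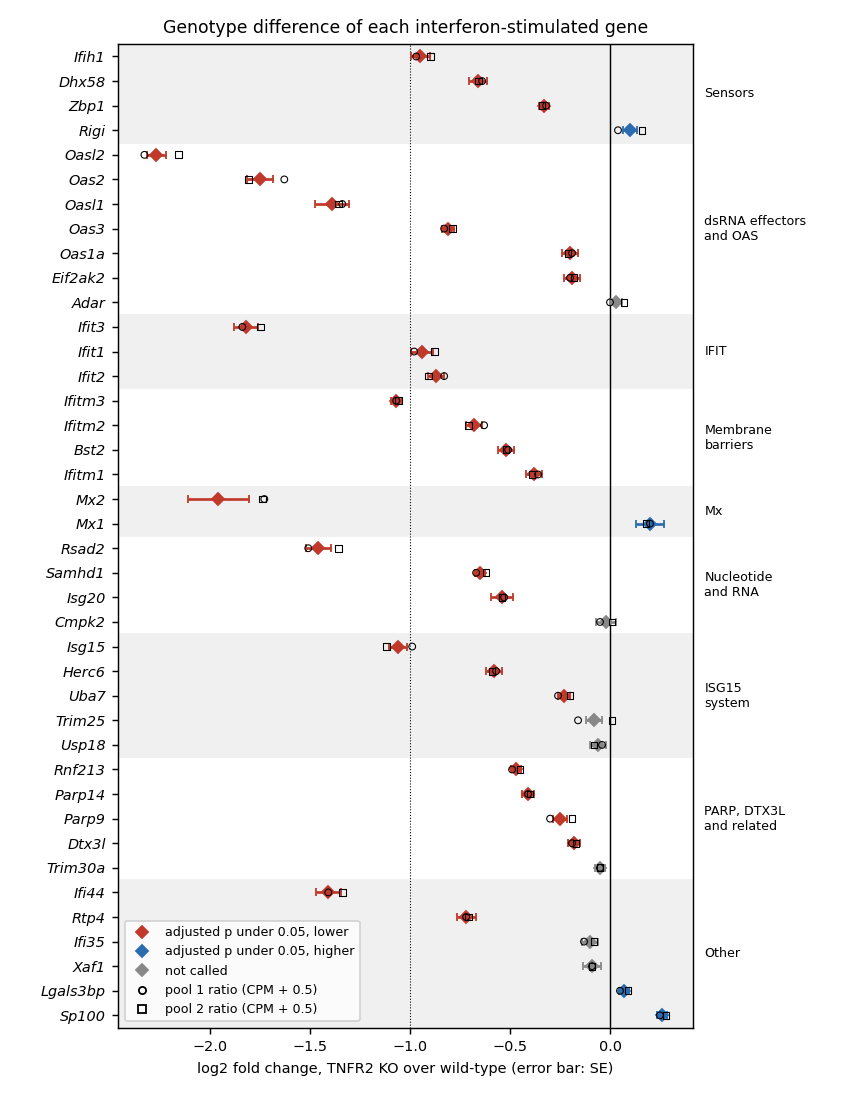
Log2-fold change of each gene in TNFR2 KO over wild-type with its standard error (diamonds, red for lower and blue for higher at an adjusted p under 0.05, grey for not called), beside the ratio within pool 1 (open circles) and pool 2 (open squares), computed from CPM plus 0.5. Oasl2, Mx2, Ifit3 and Oas2 lie farthest to the left, the dotted line marks -1, and 33 genes were below 0 in both pools.

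Libraries were also compared within each replicate number, that is, within the pooled spleen sample that the labels give them in common. TNFR2 KO over wild-type ratios had the same sign in both pairs for 37 of the 40 genes, below 1 for 33 and above 1 for 4. These are the 37 genes whose groups did not overlap, and such separation fixes the sign of both pairs, so the signs add no further evidence. Separation was seen in 37.7% (lower) and 36.4% (higher) of all genes. The other 3 genes were Adar, Cmpk2 and Trim25, whose groups overlapped. For Oasl2 the ratios on the log2 scale were -2.33 and -2.16, for Ifit3 -1.84 and -1.75, for Isg15 -0.99 and -1.12 and for Sp100 0.25 and 0.28.

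Genes that carry the interferon signal moved in both directions. Of a list of 39 genes of the pathway, 34 could be tested. Of these, 14 were lower and 12 higher, where 26.2% of all genes were lower and 24.2% higher. Their median log2-fold change was -0.01. All 34 were lower when scaled on NK cell markers, as were 12196 of all 13822 genes. Among receptors and kinases, Jak1 rose from 808.3 and 796.2 CPM to 1045.7 and 1071.2 CPM (0.40, adjusted p = 2.33e-08) and Ifngr1, a chain of the receptor for interferon gamma, from 335.6 and 340.1 CPM to 493.9 and 504.4 CPM (0.56, adjusted p = 1.87e-09). In total 4 of the 7 genes of this group were higher and 2 lower. The other chain of the receptor for interferon gamma, Ifngr2, named after its values were seen, went the other way from Ifngr1. It fell from 25.1 and 24.1 CPM to 3.59 and 3.65 CPM (-2.76, adjusted p = 1.79e-10). Macrophage or monocyte markers had a median of -2.89, and the part of these cells in the fall of Ifngr2 was not tested. The chains of the type I receptor itself, named after their values were seen, had log2-fold changes of 0.27 (Ifnar1, adjusted p = 2.96e-05) and -0.08 (Ifnar2, adjusted p = 0.154).

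Transcription factors split evenly, with 5 of 11 lower and 5 higher, where 26.2% of all genes were lower and 24.2% higher. Irf7, which drives interferon production and is itself induced by interferon, fell from 318.4 and 323.1 CPM to 128.5 and 124.3 CPM (-1.34, standard error 0.0292, adjusted p = 1.96e-12). Irf5, which acts downstream of Toll-like receptors, fell from 70.0 and 73.1 CPM to 23.9 and 23.2 CPM (-1.60, adjusted p = 6.31e-11). Of the factors that bind the response element, Stat2 and Irf9, named after their values were seen, had log2-fold changes of -0.63 and 0.19. Irf8, a lineage factor of myeloid cells that NK cells also need in MCMV infection, rose from 386.2 and 396.9 CPM to 589.4 and 596.4 CPM (0.60, adjusted p = 1.08e-09), and Stat4, which relays the IL-12 signal, from 158.5 and 158.4 CPM to 224.3 and 227.5 CPM (0.51, adjusted p = 1.28e-08).

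Of 5 inhibitors, 2 were lower and 1 higher, and of 10 sensing genes, 5 were lower and 2 higher. Of all genes tested, 26.2% were lower and 24.2% higher. The largest falls among the sensing genes were those of endosomal Toll-like receptors. Macrophage or monocyte markers had a median log2-fold change of -2.89, and the part of other cell types in these falls was not tested. Tlr9, a sensor of unmethylated CpG DNA, fell from 35.5 and 35.3 CPM to 3.18 and 3.25 CPM (-3.46, adjusted p = 4.49e-12) and Tlr7, a sensor of single-stranded RNA, from 36.3 and 33.0 CPM to 4.78 and 5.43 CPM (-2.77, adjusted p = 8.5e-11). The interferon genes searched (Ifnb1, Ifna1, Ifna2, Ifna4 and Ifna5) had 0 counts in all 4 libraries, which at 3 counts allows up to between 0.0759 and 0.0917 CPM for counting error alone. Ifng, the interferon that NK cells make, measured 187.3 and 188.0 CPM in wild-type and 190.9 and 189.3 CPM in TNFR2 KO (0.02, adjusted p = 0.601).

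**Figure D3:**
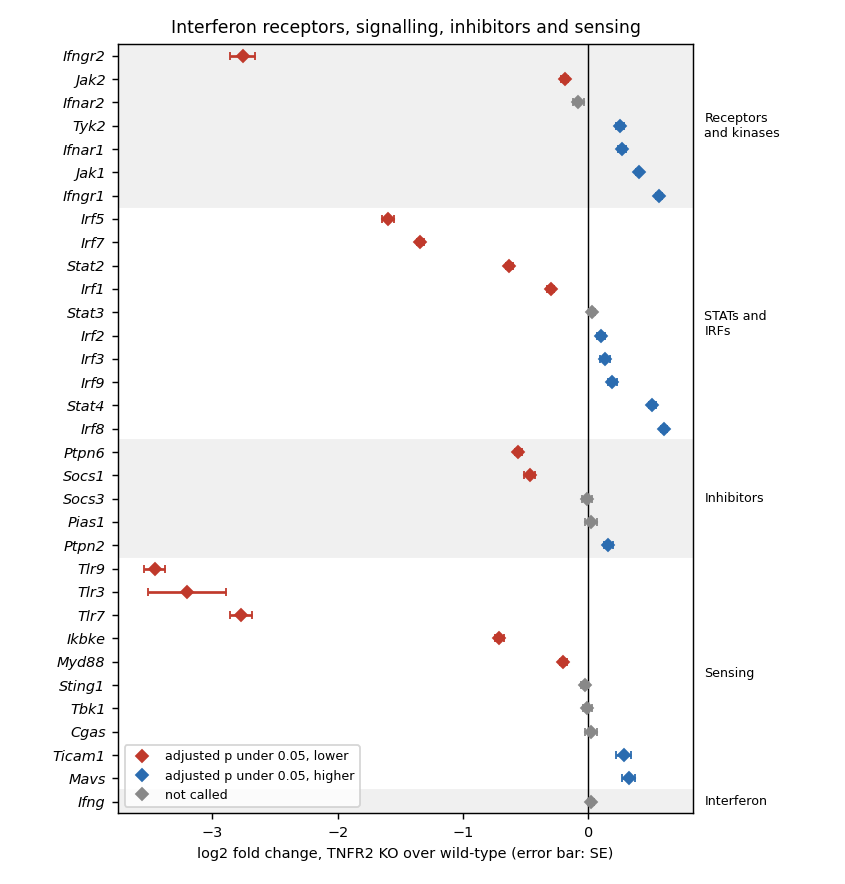
Log2-fold changes with standard errors for genes of interferon reception, signalling, inhibition and sensing, coloured by call as in the plot of the members' fold changes. Irf7, Irf5 and the endosomal Toll-like receptors lie to the left of zero, while Irf8, Ifngr1, Stat4 and Jak1 lie to the right.

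A list of 50 further interferon-stimulated genes moved in both directions. Of the 49 tested, 26 were lower, 15 higher and 8 not called, where 26.2% of all genes were lower and 24.2% higher. The threshold of 1 on the log2 scale was passed as well by 11 of the lower ones, against 11.8% of all genes. It was passed by 0 of the higher ones, against 1.56%. The median log2-fold change of the list was -0.16. When scaled on NK cell markers, 47 were lower and 0 higher, where 12196 of all 13822 genes were lower and 118 higher. Ifi207 and Ifi204, members of the family of DNA-binding HIN proteins, fell from 51.0 and 48.7 CPM to 6.26 and 6.62 CPM (-2.96) and from 88.1 and 83.8 CPM to 30.8 and 28.8 CPM (-1.53). Slfn4 and Slfn5, of the Schlafen family, fell from 126.1 and 118.0 CPM to 27.5 and 27.1 CPM (-2.16) and from 96.7 and 94.1 CPM to 29.9 and 28.7 CPM (-1.70). Within the same HIN family, Ifi209 rose from 151.3 and 148.8 CPM to 214.3 and 211.4 CPM (0.50) and Ifi213 from 21.3 and 23.2 CPM to 39.8 and 41.1 CPM (0.86). Trim12a and Trim12c, relatives of the retroviral restriction factor TRIM5, were also higher, with log2-fold changes of 0.80 and 0.62. Adjusted p-values of these 8 genes ran from 1.96e-12 to 1.27e-07. The 3 most abundant genes of the list by mean CPM over all 4 libraries, Nlrc5, which activates class I genes, Epsti1 and Ifi203, had differences of 0.18, 0.32 and 0.11, each higher at an adjusted p of 0.0043 or less, while Ifi47, which was above Ifi203 in wild-type (mean 290.0 against 287.6 CPM), was lower (-0.25). HIN, Schlafen and TRIM genes belong to families with near-identical copies, so their counts are less certain.

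**Figure D4:**
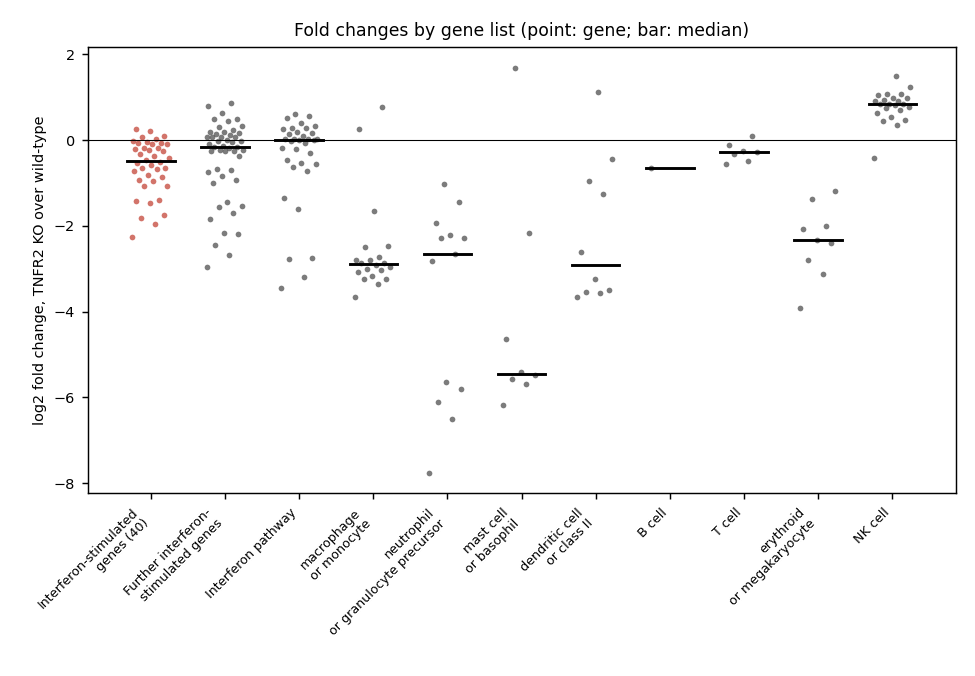
Log2-fold changes of single genes (points) and medians (bars) for the 40 interferon-stimulated genes, further interferon-stimulated genes, pathway genes and the marker lists of other cell types. The 40 genes lie between -2.27 and 0.26, above most macrophage, neutrophil and mast cell markers and below most NK cell markers.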

How the data were processed

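Per the labels and the study's methods, stranded polyA libraries were read as 100 bp paired ends, trimmed with Trimmomatic 1.4 and quantified with kallisto 0.46.1 (mm10). The authors deposited expected counts per gene, summarised with Tximport, and no source used here names the annotation. Transcript quantification divides reads among similar copies by estimate, which makes counts of near-identical genes uncertain.

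The deposited expected counts were rounded to whole numbers. A row without a gene name, 0.0559% to 0.0728% of each library, was left out. Genes were filtered with filterByExpr, scaled by TMM and compared between genotypes by the quasi-likelihood test of edgeR 4.0.16, with Benjamini-Hochberg adjustment. Standard errors were derived from that test, as the absolute log2-fold change divided by the square root of its F statistic. The scripts were tested on simulated counts. The labels' description field puts same-numbered libraries in 1 pool of hosts, so the replicate numbers pair them, although the deviations of paired libraries from their group means correlated by only 0.0487. Per-length levels used the longest GENCODE M21 transcript. Members and lists were chosen with earlier results of these data known. Every member is named. Of the pathway and further lists, the 3 most abundant genes and, in each direction, the 4 lowest adjusted p-values are named, except for 1 item that is not reported here, and other genes were named after their values were seen. Alternatives were other scalings, DESeq2 1.42.0, other filters, a replicate block and each library left out.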

Additional observations from a re-analysis of the deposited data

How the results depend on the processing

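How many genes were called higher varied with the setting. That number stayed at 4 with DESeq2 size factors and with upper-quartile factors. With library size alone, 34 of the 40 genes were lower and 1 higher and the median was -0.55, and Trim25, Trim30a, Ifi35, Xaf1 and Usp18 passed the test as lower. Under that setting 4388 of all 13822 genes were lower and 2419 higher, and the median of all genes was -0.06. With scaling on NK cell markers, under which 12196 of all 13822 genes were lower and 118 higher, 0 were higher, 29 were lower past a log2-fold change of -1 and the median was -1.35, with 34 pathway genes and 47 further interferon-stimulated genes lower and 0 of either list higher. DESeq2 and the filter at a mean of 10 CPM each gave 2 higher genes, and the filter 32 lower ones, with Trim25, Trim30a, Ifi35 and Xaf1 among them. Of all genes, DESeq2 called 2858 lower and 2555 higher, and the filter left 8765 genes, of which 2505 were lower and 2478 higher. Signs turned for Adar (-0.03 with library size alone, -0.83 with NK cell marker scaling, -0.0031 with the 10 CPM filter), for Rigi (-0.76), Mx1 (-0.67), Lgals3bp (-0.79) and Sp100 (-0.60) with NK cell marker scaling, and for Cmpk2 without wild-type replicate 1 (0.04) or TNFR2 KO replicate 2 (0.006), with a range down to -0.07 over the libraries left out. The cause was not tested. With each library left out in turn, between 1 and 3 genes were higher and the median lay between -0.51 and -0.46. With the replicate block, 29 genes were lower and 4 higher, the median was -0.49, and no member changed its call.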
